A study of Mus musculus with 11 samples.

Results

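The genes described here are 9 markers and regulators of the mesenchymal transition, Vim, Fn1, Snai1, Snai2, Zeb1, Zeb2, Twist1, Sparc and S100a4, picked by symbol from the 23284 genes in the count files. RNA was sequenced from 266-6, an established mouse pancreatic acinar cell line that makes digestive enzymes, in 11 libraries of 4 groups. The question of the series is the joint effect of the EGF receptor and of ARID1A, a DNA-binding subunit of the SWI/SNF (BAF) chromatin remodelling complex, on genes of cell plasticity. All cells were transfected for 48 h and starved of serum overnight before a final treatment of 8 h. Group siCtrl (n = 2) received the non-targeting siRNA NT5 and the vehicle, 0.1% BSA. Group siCtrl_EGF (n = 3) received the same siRNA and EGF at 40 ng/ml. Group siArid1a (n = 3) received siRNAs against Arid1a at 25 nM and the vehicle, and group siArid1a_EGF (n = 3) received those siRNAs and EGF. The labels give no concentration for the control siRNA and call the knockdown transient. All groups share 1 cell line. The labels do not say whether replicates were separate cultures, so the spread behind the p-values may be technical.

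In an epithelial to mesenchymal transition, cells loosen their junctions and take up a motile shape with more matrix and intermediate filament genes active. Snail (Snai1), Slug (Snai2), ZEB1, ZEB2 and TWIST1 are DNA-binding factors that bind E-box sequences, and the SNAIL and ZEB proteins repress E-cadherin. Vimentin (Vim) is the intermediate filament of mesenchymal cells, fibronectin (Fn1) and SPARC are matrix glycoproteins, and S100A4 is a small calcium-binding protein linked to cell motility. In the pancreas, acinar cells can lose their identity and take on ductal features, and some of these genes are also followed in pancreatic cancer.

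Depth was 10279763 to 19773007 counted reads per library. Levels are given as CPM, read counts scaled to library size with TMM factors. Arid1a stood at 263 to 399.9 CPM in the 5 libraries with control siRNA and at 122 to 157 CPM in the 6 with Arid1a siRNAs. Of 20 acinar markers, 17 were at 1 CPM or more in every library, with Cpa1 at 533 to 872 CPM, although Amy2a5 had no reads. Of 14 fibroblast and stellate cell markers, 4 reached 1 CPM in every library, chiefly Pdgfrb at 269 to 321 CPM, while Lum had no reads and Pdpn and Fap stayed at or below 0.123 CPM. The summed level of these 14 was 285 to 291 CPM in siCtrl, 307 to 336 in siCtrl_EGF, 305 to 339 in siArid1a and 325 to 331 in siArid1a_EGF. Of 8 immune markers, 7 stayed under 1 CPM, with Cd3e at 0 reads, and the list summed to 5.06 to 9.37 CPM. Of 6 endothelial markers, 4 stayed under 1 CPM, with Cdh5 and Tie1 at 0 reads, and the list summed to 38.7 to 55.4 CPM, mostly from Tek.

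Of the 9 genes, 7 had enough reads to be tested. Vim was the most abundant, at the 97.1 percentile of mean level among the 13343 tested genes, followed by Sparc at 72.7, Zeb1 at 53.9, Zeb2 at 34, Twist1 at 29, Snai1 at 22.6 and S100a4 at 3.92. On a scale corrected for transcript length (FPKM, from the authors' deposited table, median of 9 libraries), Vim stood at 237, Sparc at 36.6, Twist1 at 7.14, Zeb1 at 6.20, Snai1 at 5.35, S100a4 at 2.58 and Zeb2 at 1.66. These medians pool groups that differ, siCtrl not among them, and the order of neighbours varied: Zeb1 lay above Twist1 in siCtrl_EGF (medians of 9.22 and 7.66) and below it in siArid1a (5.02 and 6.38). Fn1 and Snai2 were too low to measure. Fn1 had 4 reads in all, 1 in each of 4 libraries, and Snai2 had 3 reads in all, 1 in each of 3 libraries. In a single library a count of 0 allows a level of up to 0.152 to 0.280 CPM (3 counts), a limit that covers counting error only. With no filter on low counts, neither Fn1 nor Snai2 passed the test in any of the 5 comparisons.

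The promoters of the 4 genes that were called higher with the Arid1a siRNAs in at least 1 state are shown here, so that their sequences can be set beside the values that follow. They are RefSeq entries on mouse build GRCm38.p6 (the counts were made on mm9), from 250 bases before to 50 bases after the start of transcription, 5′ to 3′ on the gene's strand. Capitals mark matches, on either strand, to 4 motifs: the E-box CACCTG bound by SNAIL and ZEB factors, the AP-1 motif TGANTCA, the ETS core CCGGAA and the TATA box TATAAA.
Vim, chr2:13574061-13574360, plus strand: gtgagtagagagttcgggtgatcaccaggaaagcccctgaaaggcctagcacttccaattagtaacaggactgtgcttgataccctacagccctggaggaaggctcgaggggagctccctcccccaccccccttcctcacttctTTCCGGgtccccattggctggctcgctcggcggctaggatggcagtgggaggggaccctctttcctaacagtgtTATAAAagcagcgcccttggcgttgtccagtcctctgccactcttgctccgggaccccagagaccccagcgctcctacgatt
Snai1, chr2:167537945-167538244, plus strand: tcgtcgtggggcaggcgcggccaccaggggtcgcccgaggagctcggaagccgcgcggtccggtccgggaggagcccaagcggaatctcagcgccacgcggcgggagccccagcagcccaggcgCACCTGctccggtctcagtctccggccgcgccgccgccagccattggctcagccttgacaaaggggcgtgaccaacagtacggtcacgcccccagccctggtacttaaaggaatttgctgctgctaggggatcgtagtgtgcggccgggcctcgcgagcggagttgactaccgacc
Sparc, chr11:55420031-55420330, minus strand: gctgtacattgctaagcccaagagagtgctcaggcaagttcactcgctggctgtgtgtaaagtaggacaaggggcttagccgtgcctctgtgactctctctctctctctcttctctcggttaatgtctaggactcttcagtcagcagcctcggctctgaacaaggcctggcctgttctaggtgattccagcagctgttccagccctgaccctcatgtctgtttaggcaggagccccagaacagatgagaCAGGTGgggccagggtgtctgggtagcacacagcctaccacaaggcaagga
S100a4, chr3:90603520-90603819, plus strand: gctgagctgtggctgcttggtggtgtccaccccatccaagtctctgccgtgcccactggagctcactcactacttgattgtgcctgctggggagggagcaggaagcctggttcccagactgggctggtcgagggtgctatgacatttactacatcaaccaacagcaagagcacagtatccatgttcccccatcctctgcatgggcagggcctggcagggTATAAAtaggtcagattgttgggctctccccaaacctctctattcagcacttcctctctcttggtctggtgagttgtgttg
Each window spans promoter sequence and the first transcribed bases. Vim held a TATA box at position -32 from the start and an ETS core at -106 on the opposite strand. S100a4 held a TATA box at -31 and no match to the other 3 motifs. Snai1 held an E-box at -126, and Sparc one on the opposite strand at -1. Among 32851 mouse promoters of the same length, 20.2% held CACCTG, 7.81% TGANTCA, 14.9% CCGGAA and 13.6% TATAAA. No motif overlapped another in these windows. Of the 9 genes, 6 had an entry. Zeb2 had 4 start sites, and the AP-1 motif was matched at 1 of them, at -189 and -132. Twist1 held a TATA box at -126 and an ETS core at 36.

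EGF after control siRNA raised Snai1, Sparc and Zeb1 and lowered Vim (siCtrl_EGF against siCtrl). Snai1 rose 2.05-fold, Zeb1 1.42-fold and Sparc 1.30-fold, and Vim fell by 0.29 on the log2 scale. So 3 of the 7 tested genes were called higher and 1 lower at an edgeR adjusted p under 0.05, with a median log2 change of 0.38. Over all tested genes, 35.6% were called in this comparison (16.8% higher, 18.8% lower) and the median was -0.028. In cultured cells measured in bulk, a change in the RNA of each cell and a change in the share of cells that hold it cannot be told apart.

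EGF in cells with Arid1a siRNAs (siArid1a_EGF against siArid1a) raised S100a4 6.87-fold and Snai1 1.56-fold. The other 5 tested genes did not pass, so 2 of 7 were called higher and 0 lower, with a median log2 change of 0.20. Over all tested genes, 23.4% were called (13.0% higher, 10.4% lower), with a median of -0.0085. At an unadjusted p under 0.05 the counts of the 7 were also 2 and 0, as they were with DESeq2. S100a4 is among these calls, and it entered the test through the libraries in which it was high, as given with its reads below.

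The Arid1a siRNAs without EGF (siArid1a against siCtrl) raised Sparc 1.59-fold, Snai1 1.52-fold and Vim 1.40-fold. The 3 remaining factors, Zeb1, Zeb2 and Twist1, had negative log2 changes of -0.33, -0.25 and -0.32 that did not pass the test. In all, 3 of 7 were called higher and 0 lower by edgeR and by DESeq2 (2 lower at an unadjusted p under 0.05), with a median of 0.48, beside 38.9% of all tested genes (18.8% higher, 20.1% lower) and a median of -0.0087.

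The Arid1a siRNAs in the presence of EGF (siArid1a_EGF against siCtrl_EGF) raised S100a4 4.42-fold, Vim 1.86-fold and Sparc 1.32-fold, and lowered Zeb1 1.52-fold and Zeb2 1.37-fold. This was the comparison with the most calls among the 7, 3 higher and 2 lower, and also the one with the most calls over all tested genes, 46.9% (23.7% higher, 23.2% lower). The median log2 change was 0.21 for the 7 and 0.00041 for all tested genes. S100a4 is among the calls here too, with the same limit on how it entered the test.

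The difference between the EGF responses, with Arid1a siRNAs minus with control siRNA, was called for Vim alone, at log2 0.41. That is 1 of 7 higher and 0 lower by edgeR and by DESeq2 (1 lower at an unadjusted p under 0.05), with a median of -0.21, beside 0.944% of all tested genes (0.562% higher, 0.382% lower) and a median of 0.017. The 4 pairwise comparisons share libraries, so their values stand side by side and are not independent of one another.

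**Figure D1:**
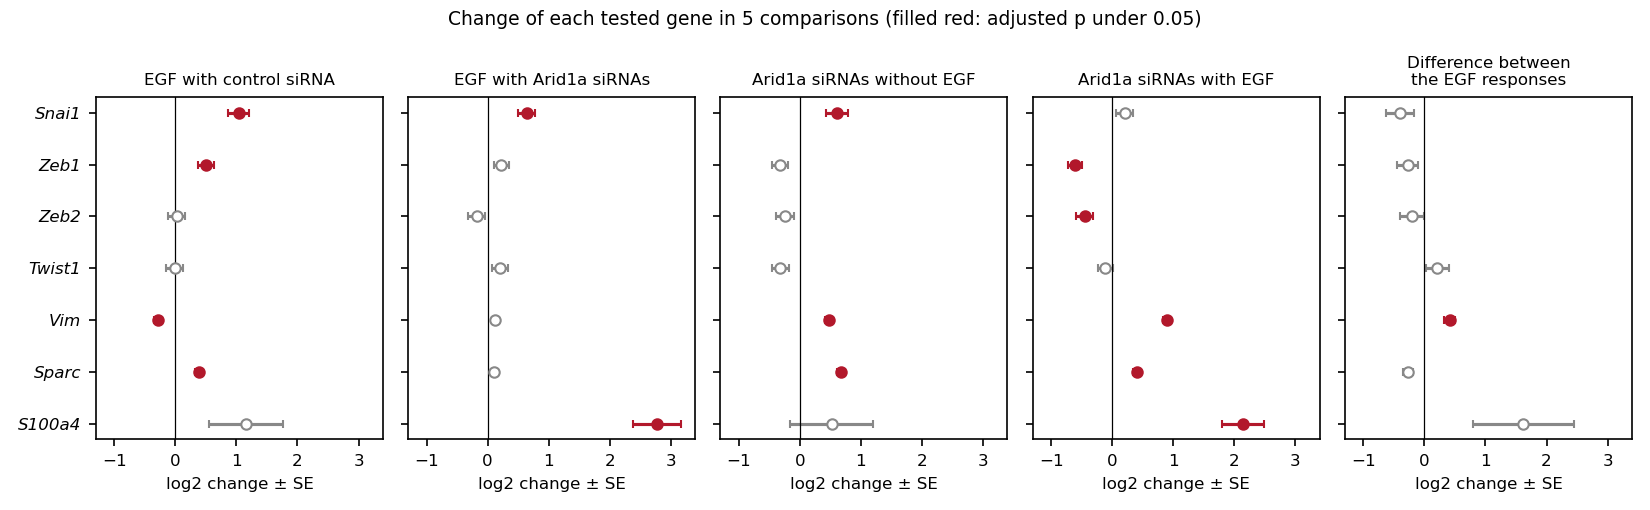
Log2 change ± standard error (x axis) of the 7 tested genes (rows) in the 5 comparisons (panels), with filled points for an edgeR adjusted p under 0.05. Snai1 lies to the right in both EGF panels, Vim and Sparc to the right in both Arid1a panels, Zeb1 and Zeb2 to the left where the Arid1a siRNAs were compared with EGF present, and S100a4 far to the right in the panels that include siArid1a_EGF against siArid1a or siCtrl_EGF.

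Snai1 encodes Snail, a zinc finger repressor that is induced early in many transitions. Its level was 3.59 and 4.30 CPM in the siCtrl libraries, 8.69, 7.09 and 8.38 CPM in siCtrl_EGF, 6.99, 5.16 and 5.92 CPM in siArid1a, and 10.0, 9.36 and 8.36 CPM in siArid1a_EGF. All libraries with EGF lay above all libraries without it. The siArid1a libraries lay above both siCtrl libraries, while the ranges of the groups with EGF overlapped. EGF raised Snai1 with control siRNA by log2 1.04 ± 0.17 (edgeR adjusted p = 0.000233) and with Arid1a siRNAs by log2 0.64 ± 0.14 (edgeR adjusted p = 0.00503). The difference between these responses was log2 -0.40 ± 0.22 and did not pass (edgeR adjusted p = 0.632). The Arid1a siRNAs raised Snai1 without EGF by log2 0.61 ± 0.18 (edgeR adjusted p = 0.0141), but it stood at 0.47 and was not called when siCtrl replicate 1 was left out (edgeR adjusted p = 0.138). With EGF the change was log2 0.21 ± 0.14 (edgeR adjusted p = 0.229). Snai1 rested on 60 to 142 reads per library. Snai2, the gene of the related repressor Slug, had at most 1 read in any library and was not compared.

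Zeb1 encodes a zinc finger and homeobox repressor of epithelial genes. It stood at 34.3 and 44.7 CPM in siCtrl, at 57.0, 49.0 and 61.2 CPM in siCtrl_EGF, at 31.0, 34.5 and 28.1 CPM in siArid1a, and at 39.4, 32.0 and 38.5 CPM in siArid1a_EGF. The siCtrl_EGF libraries lay above all others, and the 3 remaining groups overlapped their neighbours in the order of means. EGF raised Zeb1 with control siRNA by log2 0.50 ± 0.13 (edgeR adjusted p = 0.00784), a call that was lost without siCtrl replicate 1 (log2 0.31, edgeR adjusted p = 0.131). With Arid1a siRNAs the change with EGF was log2 0.22 ± 0.12 (edgeR adjusted p = 0.210). The Arid1a siRNAs lowered Zeb1 in the presence of EGF by log2 -0.60 ± 0.12 (edgeR adjusted p = 0.000732). Without EGF the change was log2 -0.33 ± 0.13 (edgeR adjusted p = 0.0659), and it depended on the siCtrl libraries. Leaving out siCtrl replicate 1 gave log2 -0.51 and a call (edgeR adjusted p = 0.0180), as did leaving out siArid1a_EGF replicate 2 (log2 -0.33, edgeR adjusted p = 0.0486). Without siCtrl replicate 2 the change was log2 -0.13 and was not called. Its EGF responses differed by log2 -0.28, which did not pass (edgeR adjusted p = 0.708).

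Zeb2, the paralogous repressor, stood at 17.1 and 19.3 CPM in siCtrl, at 18.6, 16.6 and 20.3 CPM in siCtrl_EGF, at 17.1, 16.3 and 12.4 CPM in siArid1a, and at 14.0, 11.4 and 15.1 CPM in siArid1a_EGF. The groups with control siRNA overlapped each other, as did the groups with Arid1a siRNAs. Across the siRNAs, siCtrl_EGF replicate 2 at 16.6 CPM lay below siArid1a replicate 1 at 17.1 CPM, while every siArid1a_EGF library lay below every siCtrl_EGF library. The Arid1a siRNAs lowered Zeb2 with EGF by log2 -0.45 ± 0.13 (edgeR adjusted p = 0.0119). That call was lost without siCtrl_EGF replicate 3 (log2 -0.38, edgeR adjusted p = 0.0551) or siArid1a_EGF replicate 2 (log2 -0.34, edgeR adjusted p = 0.0583). Without EGF the change was log2 -0.25 ± 0.14 (edgeR adjusted p = 0.197). EGF itself gave Zeb2 log2 changes of 0.02 with control siRNA and -0.18 with Arid1a siRNAs, neither of which passed.

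Both Zeb genes and Vim varied within groups along with Arid1a itself and with the balance of long and short transcripts in a library. That balance was taken as the median log2 deviation, from the mean of all libraries, of genes with long transcripts (over 5282.4 bases) minus that of genes with short ones (up to 1975.6 bases), and it ran from -0.300 in siArid1a replicate 3 to 0.180 in siCtrl replicate 2. In each of the 4 groups, the library with the lowest balance held the lowest Zeb1, Zeb2 and Arid1a levels and the highest Vim level of its group, so the balance and the Arid1a level cannot be told apart within groups. The longest annotated transcripts of Zeb2 and Zeb1 are 9124 and 5801 bases, and those of Vim and S100a4 are 2926 and 498 bases. With the balance as a covariate, a fit chosen after seeing the data, every call of these 3 genes in the 4 pairwise comparisons was kept. The fit also called Zeb1 lower in siArid1a than in siCtrl (log2 -0.26, edgeR adjusted p = 0.00393). Further calls in that fit were Zeb1 and Vim higher with EGF after Arid1a siRNAs (log2 0.21, edgeR adjusted p = 0.0168, and log2 0.13, edgeR adjusted p = 0.00167). As the balance was drawn from the same libraries, these smaller p-values give no separate support.

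**Figure D2:**
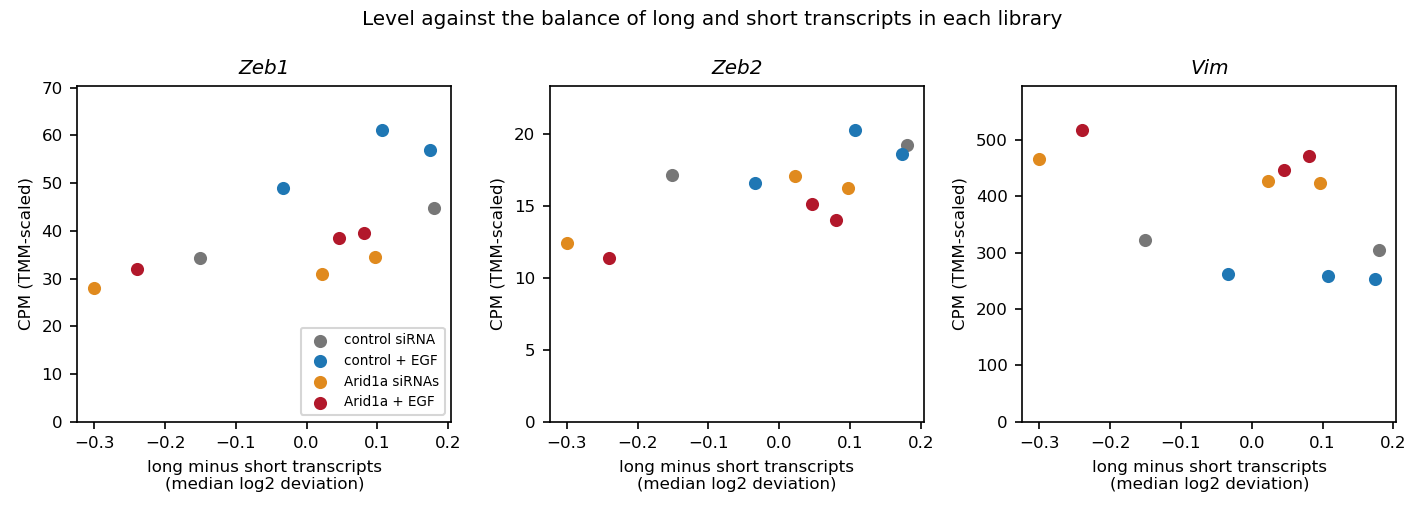
CPM of Zeb1, Zeb2 and Vim (y axes) against the balance of long and short transcripts in each of the 11 libraries (x axis, median log2 deviation, long minus short), coloured by group. Within each colour the leftmost library is the lowest for Zeb1 and Zeb2 and the highest for Vim.

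Twist1 encodes a basic helix-loop-helix factor of mesoderm and mesenchyme. It stood at 12.8 and 12.1 CPM in siCtrl, at 12.0, 12.0 and 13.1 CPM in siCtrl_EGF, at 8.58, 10.1 and 11.1 CPM in siArid1a, and at 9.65, 13.5 and 11.3 CPM in siArid1a_EGF. Neighbouring groups overlapped throughout the order of means, and the siArid1a libraries lay below both siCtrl libraries. No comparison passed the test. The change with Arid1a siRNAs without EGF was log2 -0.32 ± 0.14 (edgeR adjusted p = 0.0876), and it was called with the transcript balance as a covariate (log2 -0.35, edgeR adjusted p = 0.0180). The change with Arid1a siRNAs in the presence of EGF was log2 -0.11 (edgeR adjusted p = 0.509), and EGF after Arid1a siRNAs gave log2 0.20 (edgeR adjusted p = 0.311).

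Vim was the gene with the most reads, 3350 to 7080 per library. It stood at 322 and 305 CPM in siCtrl, at 253, 261 and 258 CPM in siCtrl_EGF, at 426, 423 and 466 CPM in siArid1a, and at 472, 518 and 446 CPM in siArid1a_EGF. The siCtrl_EGF libraries were the lowest, the siCtrl libraries came next, and all 6 libraries with Arid1a siRNAs lay above both, with overlap between those 2 groups. EGF lowered Vim with control siRNA by log2 -0.29 ± 0.07 (edgeR adjusted p = 0.00393), while with Arid1a siRNAs the change was log2 0.13 ± 0.06 (edgeR adjusted p = 0.148). The Arid1a siRNAs raised Vim without EGF by log2 0.48 ± 0.07 (edgeR adjusted p = 7.41e-05) and with EGF by log2 0.90 ± 0.06 (edgeR adjusted p = 4.70e-08). The difference between the EGF responses was log2 0.41 ± 0.09 (edgeR adjusted p = 0.0464), close to the threshold. The call of that difference was kept without siArid1a replicate 3 and without siArid1a_EGF replicate 3, and lost without each of the other 9 libraries (edgeR adjusted p from 0.0567 to 0.149). It was also lost with RLE scaling (edgeR adjusted p = 0.0573) and with the replicate number as a block (edgeR adjusted p = 0.163), and the log2 value stayed between 0.35 and 0.46 in all alternatives. The summed fibroblast and stellate marker level, given above, was also higher in the Arid1a siRNA groups than in siCtrl. It was higher than in siCtrl in siCtrl_EGF as well, the group in which Vim was lowest. With EGF present, the range of that sum in siArid1a_EGF (325 to 331 CPM) lay within that in siCtrl_EGF (307 to 336 CPM). Most of the sum was Pdgfrb, at 269 to 321 CPM, and the part of these markers in the Vim change was not tested. Fn1, the gene of the matrix protein most often paired with vimentin in this setting, had at most 1 read per library.

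Sparc encodes a secreted matricellular glycoprotein that binds collagen. It stood at 55.9 and 54.2 CPM in siCtrl, at 72.2, 68.7 and 74.3 CPM in siCtrl_EGF, at 84.5, 85.6 and 93.3 CPM in siArid1a, and at 94.7, 95.3 and 93.9 CPM in siArid1a_EGF. The 4 groups followed one another in that order with no overlap. EGF raised Sparc with control siRNA by log2 0.38 ± 0.07 (edgeR adjusted p = 0.000388). With Arid1a siRNAs its change with EGF was log2 0.11 ± 0.06 and did not pass (edgeR adjusted p = 0.192). The Arid1a siRNAs raised it without EGF by log2 0.67 ± 0.07 (edgeR adjusted p = 2.90e-06) and with EGF by log2 0.40 ± 0.06 (edgeR adjusted p = 5.44e-05). Its EGF responses differed by log2 -0.27 ± 0.09, which did not pass (edgeR adjusted p = 0.222), although it was called with the transcript balance as a covariate (log2 -0.28, edgeR adjusted p = 0.0182). All 3 calls of Sparc in the pairwise comparisons were kept in every alternative run.

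S100a4 was the rarest of the tested genes and was carried by few reads. It had 5 and 4 reads in the siCtrl libraries, 12, 3 and 11 in siCtrl_EGF, 2, 9 and 4 in siArid1a, and 34, 39 and 35 in siArid1a_EGF. In CPM the last group stood at 2.39, 2.85 and 2.93, and no other library was above 0.869. The siArid1a_EGF libraries thus lay apart from all others, while the 3 remaining groups overlapped. Only 5 libraries, the 3 of siArid1a_EGF and replicates 1 and 3 of siCtrl_EGF, exceeded the filter's level of 0.711 CPM, so S100a4 entered the test through the libraries in which it was high. S100a4 was higher in siArid1a_EGF than in siCtrl_EGF by log2 2.14 ± 0.35 (edgeR adjusted p = 0.000164) and than in siArid1a by log2 2.78 ± 0.40 (edgeR adjusted p = 0.000144). Pooled over libraries, 108 reads in siArid1a_EGF against 26 in siCtrl_EGF gave a ratio of 4.49 with a 95% exact interval of 2.90 to 7.18. Against the 15 reads of siArid1a the ratio was 6.96 (4.04 to 12.9), and against the 9 of siCtrl it was 10.2 (5.16 to 22.8). These intervals cover counting error only. The summed immune marker level was also highest in siArid1a_EGF, at 8.36 to 9.37 CPM against 5.06 to 7.68 CPM in the other groups. Most of it was Cd68, at 4.96 to 9.23 CPM, while Ptprc (CD45) and Lyz2 stayed at or below 0.246 and 0.187 CPM.

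With control siRNA, EGF gave S100a4 a log2 change of 1.16 ± 0.61 (edgeR adjusted p = 0.155), which was called without siCtrl_EGF replicate 2, the library with 3 reads (log2 1.65, edgeR adjusted p = 0.0172). For siArid1a against siCtrl the log2 change was 0.52 ± 0.68 (edgeR adjusted p = 0.577), and it stood at 0.032 without siArid1a replicate 2 and at 0.80 without siArid1a replicate 1, uncalled in both. Its EGF responses differed by log2 1.62 ± 0.83, which did not pass (edgeR adjusted p = 0.578), so the larger rise of S100a4 with EGF after Arid1a siRNAs was not shown to differ from that after control siRNA. In GENCODE vM21 the gene overlaps Gm42674 on the same strand, which the count files do not list, so reads of this overlap cannot be assigned with certainty. Zeb1 and Zeb2 overlap antisense transcripts (Gm10125, with 0 to 5 reads per library, and Zeb2os, which the count files do not list), and the library kit does not mark the strand.

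**Figure D3:**
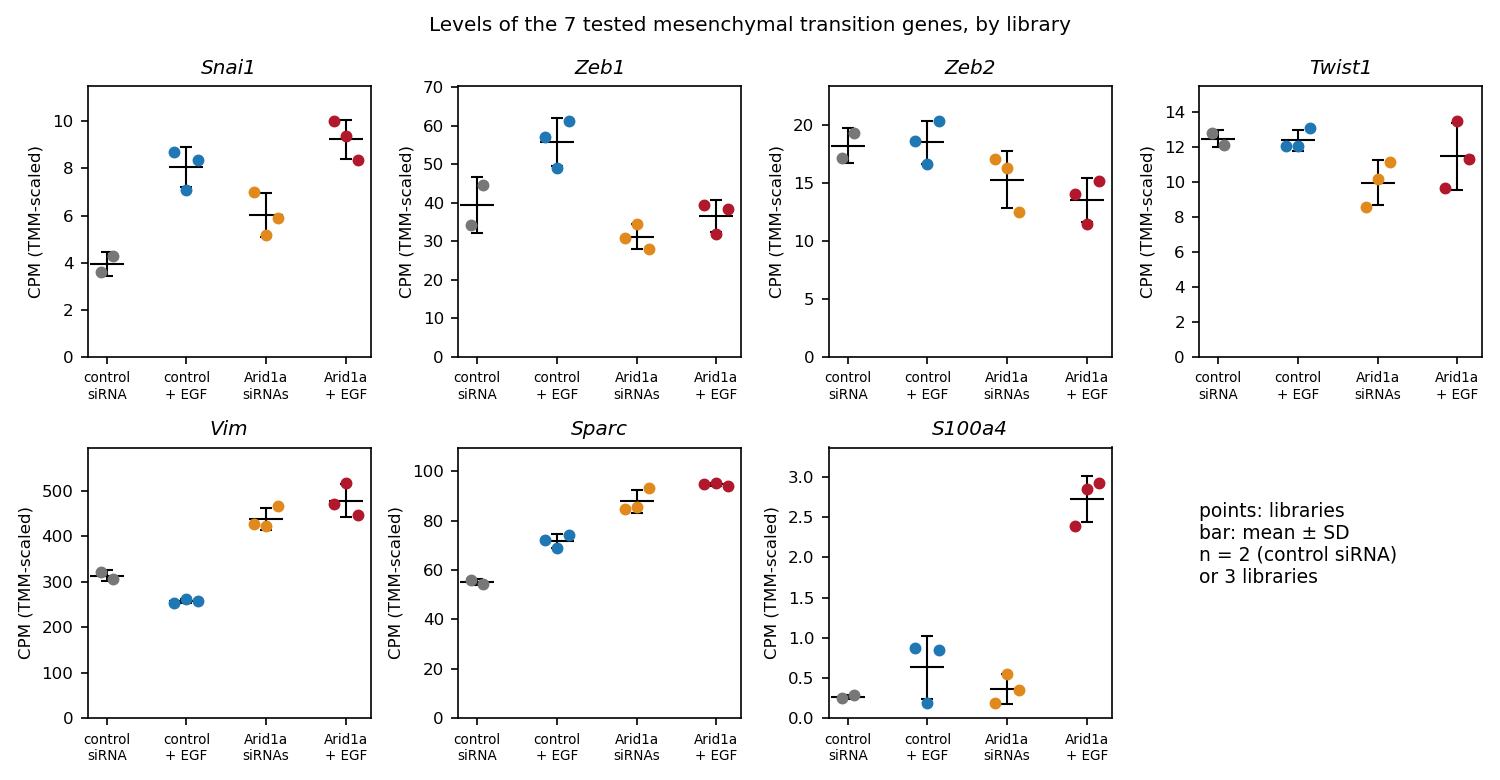
CPM (y axis, starting at 0, TMM-scaled) of each tested gene in the 11 libraries, by group, with points for libraries and bars for mean ± SD (n = 2 for control siRNA, n = 3 otherwise). Sparc climbs through the 4 groups without overlap, Vim separates by siRNA, Snai1 separates by EGF, Zeb1 is highest in control siRNA with EGF, and S100a4 is set apart by siArid1a_EGF at 2.39 to 2.93 CPM.

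Other genes of the transition were then counted in the same fit, in lists chosen with earlier results of these data known. Of 38 EMT factors and mesenchymal genes beyond the 9, 28 were tested. EGF after control siRNA raised 11 and lowered 3 of them, beside 16.8% higher and 18.8% lower over all tested genes, with a median log2 change of 0.23 in the list and -0.028 over all. EGF after Arid1a siRNAs raised 12 and lowered 2, beside 13.0% and 10.4% over all, with medians of 0.29 and -0.0085. Tgfbi, a TGF-beta-induced matrix protein gene, rose 3.23-fold with control siRNA, from a mean of 2.24 to 7.23 CPM, and 2.63-fold with Arid1a siRNAs, from 3.46 to 9.22 CPM. Cdh2 (N-cadherin), the cadherin of mesenchymal and neural cells, rose 1.43-fold and 1.34-fold. Axl, a receptor tyrosine kinase gene, rose 1.19-fold with control siRNA and 1.64-fold with Arid1a siRNAs. The difference between these 2 responses of Axl did not pass (edgeR adjusted p = 0.0863). Fstl1, a secreted glycoprotein gene, fell in both settings, by 0.44 and by 0.59 on the log2 scale. Without siCtrl replicate 1, EGF with control siRNA called 9 of this list in place of 14.

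With the Arid1a siRNAs, 6 of these 28 were called lower and 2 higher without EGF, beside 20.1% lower and 18.8% higher over all tested genes, so that the share called lower was near that of all genes. With EGF, 10 were called lower and 4 higher, beside 23.2% and 23.7% over all. The median log2 change of the list was -0.16 in both comparisons. Msn (moesin), which links actin to the membrane, fell by 0.87 without EGF, from a mean of 435 to 238 CPM, and by 0.77 with EGF, in log2 units. Tpm1, an actin-binding tropomyosin gene, fell by 0.44 and 0.53, and Tcf4, a helix-loop-helix factor that binds E-boxes, fell by 0.47 and 0.58, also in log2 units. Postn (periostin), a matrix gene that also stands in the fibroblast list, rose with EGF present 2.30-fold, from a mean of 1.29 to 2.93 CPM. The count without EGF was 5 with the replicate block and 4 without siArid1a replicate 2, in place of 8. With EGF it was 9 without siCtrl_EGF replicate 1, 8 without siCtrl_EGF replicate 3 and 8 without siArid1a_EGF replicate 3, in place of 14. The difference between the EGF responses was called for 0 of the 28 by edgeR and by DESeq2 (2 at an unadjusted p under 0.05).

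Of 28 listed genes that epithelial cells express and often lose in the transition, 24 were tested. EGF raised 5 and lowered 5 with control siRNA, near the 16.8% higher and 18.8% lower over all tested genes, with a list median of -0.042. After Arid1a siRNAs it raised 3 and lowered 5, beside 13.0% and 10.4% over all, with a list median of 0.096. The keratin genes Krt8 and Krt18, expressed in simple epithelia, rose 3.62-fold and 1.39-fold with control siRNA. Without siCtrl replicate 2, Krt18 was no longer called (edgeR adjusted p = 0.0641). Elf3, an epithelial ETS factor gene, fell by 1.01 on the log2 scale. Without siCtrl replicate 1, EGF with control siRNA called 5 of the list in place of 10. For EGF after Arid1a siRNAs the count was 4 without siArid1a replicate 1 or siArid1a_EGF replicate 3, and 5 without siArid1a replicate 2 or 3, in place of 8. The Arid1a siRNAs raised 5 and lowered 5 without EGF, near the 18.8% and 20.1% over all, and raised 8 and lowered 5 with EGF, beside 23.7% and 23.2%. The list medians were -0.18 and 0.030. Cdh1 (E-cadherin), the adherens junction gene that Snail and ZEB factors repress, rose 1.91-fold without EGF, from a mean of 409 to 780 CPM, and 1.92-fold with EGF. Vim rose in the same comparisons. Of the claudin genes of tight junctions, Cldn3 rose 1.79-fold and Cldn1 fell by 1.66 on the log2 scale without EGF, and Cldn4 and Cldn7 were not called there. With EGF present, Cldn4 was called lower, with a log2 change of -3.10, from a mean of 2.41 to 0.282 CPM. EGF after control siRNA raised Cldn4 6.75-fold, from a mean of 0.314 CPM. Only the siCtrl_EGF mean of Cldn4 lay above the filter's level of 0.711 CPM, with siArid1a at 0.110 CPM. By these means Cldn4 entered the test through the group in which it was high. Both calls set that group against means below the filter's level. With the Arid1a siRNAs without EGF, the desmosome gene Dsp fell by 0.78 in log2 units, and its partner Jup rose 1.21-fold.

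TGF-beta signalling is a known inducer of the transition. Of 16 listed genes, 13 were tested. EGF raised 5 and lowered 3 with control siRNA, beside 16.8% and 18.8% over all tested genes, with a list median of 0.18. After Arid1a siRNAs it raised 5 and lowered 0, beside 13.0% and 10.4%, with a list median of 0.11 (0 lower with DESeq2 too, and 2 at an unadjusted edgeR p under 0.05). The ligand gene Tgfb1 rose 1.67-fold and 1.96-fold, the receptor gene Tgfbr1 1.65-fold and 1.60-fold, and Ski, a SMAD repressor gene, 1.59-fold and 1.40-fold. Smad3, a receptor-activated SMAD gene, fell by 0.48 in log2 units with control siRNA. The Arid1a siRNAs raised 3 and lowered 3 without EGF, beside 18.8% and 20.1% over all, and raised 5 and lowered 3 with EGF, beside 23.7% and 23.2%. The list medians were -0.12 and -0.094. Tgfb3, another ligand gene, rose 2.12-fold without EGF, from a mean of 3.11 to 6.45 CPM, and Tgfb1 rose 1.31-fold without EGF and 1.54-fold with it. The shared mediator gene Smad4 fell by 0.37 and 0.28, and the decoy receptor gene Bambi by 0.67 and 0.80, in log2 units.

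**Figure D4:**
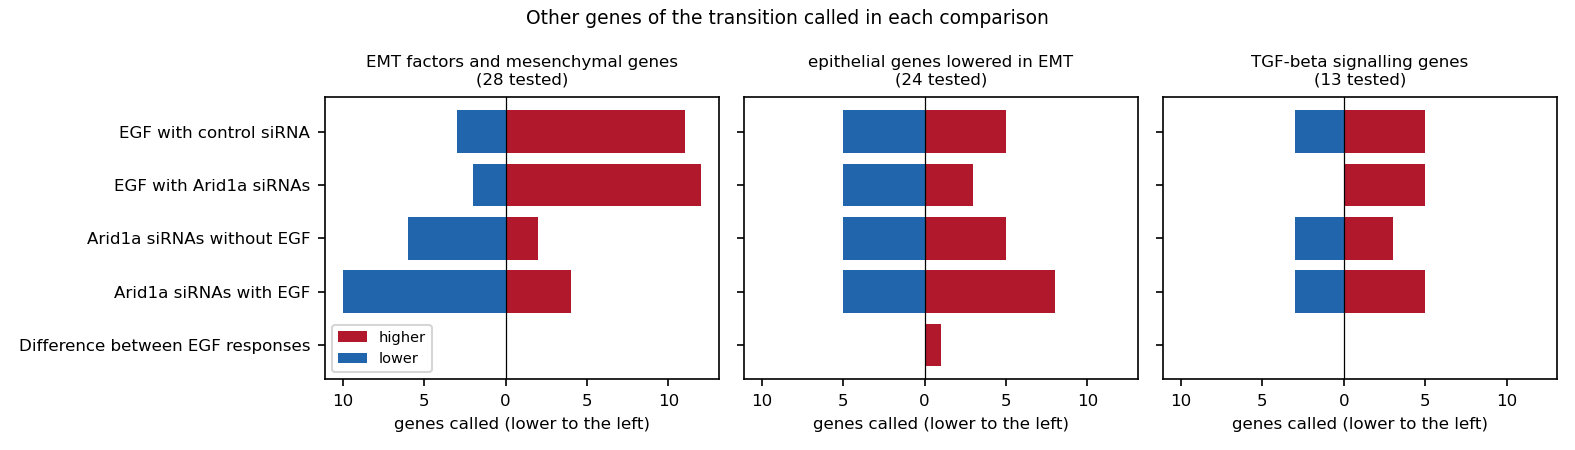
Number of tested genes called higher (right) and lower (left) at an edgeR adjusted p under 0.05 in 3 lists of related genes (panels) for the 5 comparisons (rows). In the EGF rows the EMT and mesenchymal list has 11 and 12 genes to the right and 3 and 2 to the left. Over all tested genes, 16.8% and 13.0% were called higher and 18.8% and 10.4% lower there. In the Arid1a rows this list has 2 and 4 genes to the right and 6 and 10 to the left. The shares over all tested genes there were 18.8% and 23.7% higher and 20.1% and 23.2% lower. The epithelial list has 5 on each side in the first comparison.

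Genes whose log2 CPM followed that of each member most closely across the 11 libraries were found by Pearson correlation, as a description over libraries that share groups and transcript balance. For Vim they were H2-T23 (r = 0.985), Pex6 (0.984) and Slc39a3 (0.983), and for Sparc P4hb (0.979), Cdk8 (0.978) and Trap1 (0.978). For Snai1 they were Tnfaip2 (0.971), Glt25d1 (0.964) and Abr (0.952). Zeb1 was followed by Galnt4 (0.993), by the acinar transcription factor gene Nr5a2 (0.992) and by Scaf11 (0.983), and Zeb2 by Ogt (0.972), Rbm41 (0.958) and Pcm1 (0.957). For Twist1, which did not pass in any comparison, the closest were lower, Sdf2l1 (0.882), Engase (0.879) and Prelid1 (0.868). S100a4 was followed by Rell1 (0.941), Trib3 (0.930) and Aars (0.926).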

How the data were processed

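RNA-seq was measured in 11 libraries of 266-6 cells, made with a TruSeq v2 kit that does not mark the strand. Per the submitters' processing notes, the tools were TopHat2 2.1.1, HTSeq 0.9.1, Cuffnorm 2.2.1.2 and Cuffdiff 2.2.1.5, with build mm9. Which annotation was used, and how reads were counted, is not given in the sources used here. The deposited tables hold raw counts, 1 table for each library, by gene symbol. The authors' deposited table of FPKM served only for levels, and its 3 control columns were not used, as the series holds 2 control libraries.

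Counts were fitted with edgeR 4.0.16 in R 4.3.3 (filterByExpr, minimum count 10 and minimum total 15, TMM scaling, robust quasi-likelihood, 4 group means over all 11 libraries, 7 residual degrees of freedom). Of 23284 genes, 13343 were tested, with 99.96% of the reads. The biological coefficient of variation was 7%. Calls are two-sided Benjamini-Hochberg adjusted p-values under 0.05 over all tested genes. Alternatives were RLE scaling, no filter, DESeq2 1.42.0, a replicate block, only the groups compared, each library left out and, chosen after seeing the data, a transcript balance covariate (GENCODE vM21 lengths for 90.6% of tested genes, short transcripts up to 1975.6 bases, long ones over 5282.4). Pairs of libraries in a group differed by a chi-square per degree of freedom of 1.57 to 10.9, so none was a copy.

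The 9 members and the lists were chosen with earlier results of these data known. The text names all members and, of each pathway list and comparison, up to 3 called genes per direction with the smallest p, some being given only in counts and a few not reported here. Likeness was compared over tested genes whose mean log2 CPM was 3 or more, clone-type symbols left out. Replicate numbers come from the sample labels. For the Arid1a siRNAs with EGF, deviations of the 3 same-number pairs correlated at 0.129 to 0.303, against -0.188 to 0.065 for other pairs. That is a hint from the data that the numbers may pair the libraries there. Deviations from a group mean sum to 0 in each group, so these correlations are not independent of one another. The main fit used no pairing, and the replicate block was an alternative only.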

Additional observations from a re-analysis of the deposited data

Results flagged for a closer look

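The difference between the EGF responses, with Arid1a siRNAs minus with control siRNA, was called by the interaction test for Vim at log2 0.41 (edgeR adjusted p = 0.0464). The call was lost with the replicate block (edgeR adjusted p = 0.163), with RLE scaling (edgeR adjusted p = 0.0573) and without each of 9 of the 11 libraries. All 3 siCtrl_EGF libraries lay below both siCtrl libraries, whereas the siArid1a and siArid1a_EGF libraries overlapped. The same test called Grhl3, an epithelial transcription factor gene, at log2 1.01 (edgeR adjusted p = 0.00673), with means of 72.1 CPM in siCtrl, 14.4 in siCtrl_EGF, 52.5 in siArid1a and 21.2 in siArid1a_EGF. The log2 change of Grhl3 with EGF was -2.31 with control siRNA and -1.31 with Arid1a siRNAs.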

How the results depend on the processing

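Of 15 changes of a member's call from passing to not passing and 8 from not passing to passing, those that decide a statement stand beside their gene. Low read counts limited Fn1, Snai2 and, outside siArid1a_EGF, S100a4. The replicate block changed no member call except that of the interaction: it called 0 members and 56 genes there, in place of 1 and 126. RLE scaling also called 0 members in the interaction. The transcript balance covariate called 5 members for Arid1a siRNAs without EGF, 4 members and 5200 genes for EGF with Arid1a siRNAs, and 2 members and 761 genes in the interaction. The balance varied within groups and also between group means, from 0.083 in siCtrl_EGF to -0.060 in siArid1a. Why more genes passed in that fit was not tested. Leaving out each library gave 3648 to 5039 genes and 3 to 5 members for EGF with control siRNA, 3904 to 5279 and 3 to 4 for Arid1a siRNAs without EGF, 5382 to 6549 and 4 to 5 with EGF, 2217 to 3399 and 2 for EGF with Arid1a siRNAs, and 55 to 153 and 0 to 1 in the interaction. Changes of sign were confined to values near 0 that passed in no fit, and the cause was not tested. Twist1 for EGF with control siRNA, at -0.052 to 0.024 with a library left out, was 0.0062 with no filter, 0.0030 with only the groups compared, 0.024 without siCtrl replicate 1, 0.0069 and 0.0078 without siCtrl_EGF replicates 1 and 2, and 0.033 with the covariate. Zeb2 for EGF with control siRNA, at -0.069 to 0.11 with a library left out, was -0.069 without siCtrl replicate 1, -0.046 without siCtrl_EGF replicate 3 and -0.045 with the covariate. Twist1 for Arid1a siRNAs with EGF was 0.0049 without siArid1a_EGF replicate 1 and -0.24 without replicate 2. Outside the comparison named in the methods, pairing by replicate number was not shown. In the comparisons with siCtrl, the deviations of its 2 libraries mirror each other, so the check could not decide. For EGF with Arid1a siRNAs, same-number pairs correlated at -0.302 to 0.044, against -0.211 to 0.279 for other pairs.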
